A study of Mus musculus with 12 samples.

Results

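The beta-2 integrin chains are the 5 genes Itgal, Itgam, Itgax, Itgad and Itgb2, which encode the CD11 and CD18 adhesion receptors of leukocytes. They were chosen by gene symbol from the 55291 gene rows of a deposited expression table, with the ozone response of Itgad in that table already known. The table describes alveolar macrophages, phagocytes that live on the surface of the air sacs, sorted by flow cytometry from the lungs of female C57BL6/NJ mice that were 8 to 11 weeks old. One group of 6 mice breathed 0.8 ppm ozone and the other group of 6 breathed filtered air, each for 4 hours a day over 4 days in a row, and lungs were taken 3 days later. No mouse carried an allele or agent beyond the exposure, per the labels. The study's title places these macrophages in the tolerance of the lung to ozone, and each mouse is its own sample.

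An integrin is a pair of an alpha and a beta chain that spans the membrane and binds ligands on other cells, on matrix or on opsonized particles. All beta-2 integrins share the chain CD18, made from Itgb2, and an alpha chain needs this partner to reach the cell surface. The alpha chain sets the ligand: CD11a (Itgal) forms LFA-1 and binds ICAM proteins, CD11b (Itgam) forms Mac-1 or complement receptor 3, CD11c (Itgax) forms complement receptor 4, and CD11d (Itgad) forms a receptor for VCAM-1 and matrix proteins that is found on tissue macrophages. Mouse alveolar macrophages are known for abundant CD11c and little CD11b, and these surface proteins are often used to gate them. Whether the gate of this study used CD11b or CD11c is not given in the sources used here.

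The genes of 4 alpha chains lie on chromosome 7, on the plus strand, and 3 of them form a cluster. In GENCODE M21 on GRCm38, the build named mm10 in the submitters' processing notes, Itgam spans chr7:128062640-128118491, Itgax chr7:128129547-128150657 and Itgad chr7:128154376-128223816. Itgal lies apart at chr7:127296260-127335138, and Itgb2 at chr10:77530252-77565708. The coding transcripts compared here have 29 exons for Itgam, 30 for Itgax, 31 for Itgad, 30 for Itgal and 16 for Itgb2.

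Itgad and Itgax are the closest pair in sequence. Their coding sequences had 74.1% identical bases over 3434 aligned bases, against 66.1% for Itgad with Itgam and 61.2% for Itgad with Itgal. The likeness of Itgad and Itgax was uneven. Their longest identical run held 188 bases, from base 1324 to 1511 of the Itgad coding sequence and from 1201 to 1388 of that of Itgax, while Itgad shared no run over 16 bases with Itgam. The run with 31 bases on each side is printed for both genes, because it is longer than the 50-base reads of these libraries and so marks where a single read cannot be given to 1 gene by its letters. Capitals mark the bases that differ. The stretch is coding exon sequence with the introns left out, read 5′ to 3′ on the plus strand from exons 12 to 14 of Itgad, chr7:128189309-128189820, and exons 11 to 13 of Itgax, chr7:128135581-128136093.
Itgad: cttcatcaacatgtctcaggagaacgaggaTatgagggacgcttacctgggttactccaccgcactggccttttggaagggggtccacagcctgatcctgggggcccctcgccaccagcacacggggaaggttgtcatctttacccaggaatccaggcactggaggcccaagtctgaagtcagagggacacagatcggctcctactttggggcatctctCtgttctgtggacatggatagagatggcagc
Itgax: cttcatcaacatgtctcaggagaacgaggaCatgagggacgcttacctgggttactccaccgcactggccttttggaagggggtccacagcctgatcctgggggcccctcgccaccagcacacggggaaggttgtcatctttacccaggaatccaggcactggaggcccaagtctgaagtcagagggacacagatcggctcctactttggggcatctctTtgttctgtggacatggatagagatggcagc
Of these 250 bases, 248 were identical and 2 differed.

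Counted over all 50-base words of a transcript, 384 of the 3916 words of Itgad, or 9.81%, also occurred in Itgax and in no other annotated gene. They lay in 6 stretches, all of them coding. Itgal shared 0 words with other genes, and Itgb2 shared 34, or 1.16%, with the annotated gene Gm14699. Itgam was a special case, because 91.8% of its words also occurred in Gm49368, an annotated gene model that overlaps Itgam from chr7:128062683 and runs to 128128160. Apart from Gm49368, Itgam shared 0 words. Gm49368 was at the lowest shared value in 7 of the 12 mice and was not tested. How reads that match more than 1 gene were divided is not given in the sources used here, so values of Itgam, and to a smaller part those of Itgad and Itgax, carry this uncertainty.

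**Figure D1:**
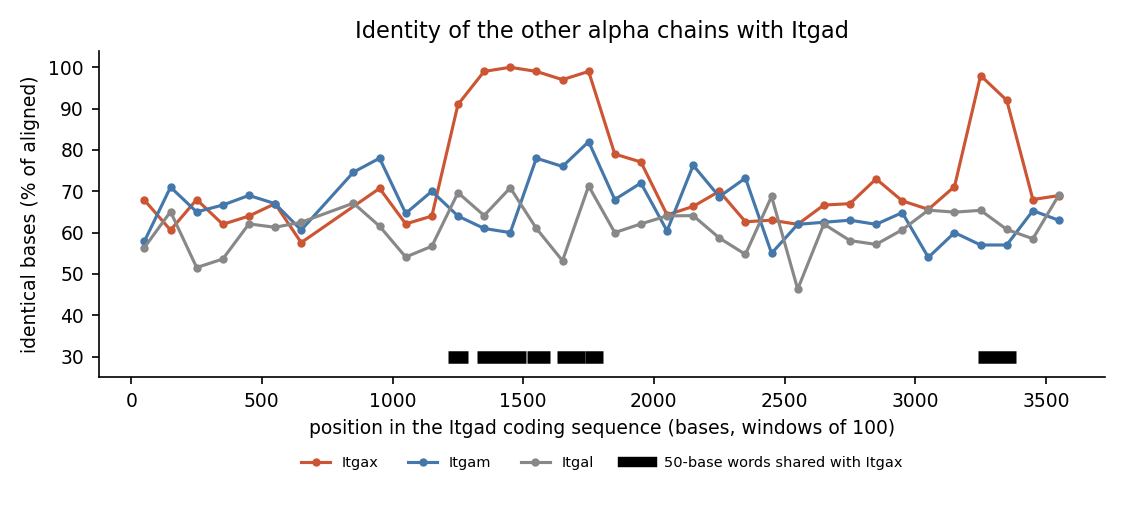
Share of identical aligned bases between the coding sequence of Itgad and that of Itgax, Itgam or Itgal, in windows of 100 Itgad bases (windows with under 50 aligned bases are left out), with black bars where 50-base words are shared with Itgax. Identity with Itgax reached 100% between bases 1401 and 1500 and 98% between bases 3201 and 3300, and lay between 57.6% and 79% in the windows outside the high stretches.

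Expression values are on a variance-stabilized log2 scale and relative to the filtered-air mean, which is 0 for every gene. They do not hold how abundant a gene is, so levels cannot be compared between chains. Total read numbers are unknown. Relative depth, read from the size of the smallest step above the lowest value, lay between 0.871 and 1.22, with a mean of 0.999 ± 0.105 (SD, n = 6) for the filtered-air libraries and 1.01 ± 0.149 (SD, n = 6) for the ozone libraries. All 5 chains had reads in all 12 mice, as had all 16 listed alveolar macrophage markers. Of these markers 4 of 16 were called in limma, where 4.25% of all genes tested were: Car4 was 0.32 and Chil3 0.25 higher after ozone, and Krt79 differed by -0.35 and Ear1 by -0.28. Marco differed most in the list, by 0.58, and was not called. The list had a median difference of -0.057, and the part of such changes in the values of the chains was not tested. On this scale 1 log2 unit of reads appears as 0.349 at 100 reads and as 0.966 at 10000 reads, if the size factors average 1, so differences of sparse genes look smaller than they are.

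Filtered-air mouse 4 stood apart from its group. It had the lowest RNA integrity number, 8.9, and exceeded its group's median in all 10 marker lists of other cell types, with the group's highest value in 7 of them. Ozone mouse 4 also exceeded its group's median in the 10 lists but was highest in only 1 of them, and its relative depth of 0.871 was close to the 0.874 of ozone mouse 1. Some values are also given without one or both of these mice. Of 81 marker entries in these lists, 74 passed the filter on low values and 73 had reads in all 12 mice. In limma 2 of the 74 were called, where 4.25% of all genes tested were. These were Cxcr2 of neutrophils, higher, and Epcam of epithelial cells, which differed by -0.55 (SE 0.0992, limma adjusted p = 0.0062) with groups that did not overlap. Other genes of both lists went the other way. Neutrophil markers had 4 differences above 0 and 4 below, with Csf3r at -0.27. Epithelial markers had 2 above and 6 below, with Foxj1 at 0.16. The part of epithelial cells in the values of the chains was not tested. Camp of neutrophils and Epx of eosinophils did not vary between mice, as genes without a read do, and Ly6g of neutrophils fell below the filter. In bulk RNA, fewer cells of a type and less RNA per cell cannot be told apart.

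The chains did not move as a family. Itgad was far lower after ozone, its partner chain Itgb2 was slightly higher, and Itgax, Itgal and Itgam had overlapping groups. Of the 5 chains, 2 passed an adjusted p under 0.05 in limma, while 4.25% of the 19633 genes tested did so. One of these was lower (1.84% of all genes tested) and 1 was higher (2.41%). The groups did not overlap in the same 2 chains, and in 3.53% of all genes tested. The chains were chosen with this contrast known, so these counts and the differences that follow are a description. The median difference of the 5 chains was 0.043, beside a median of -0.0033 over all genes tested.

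**Figure D2:**
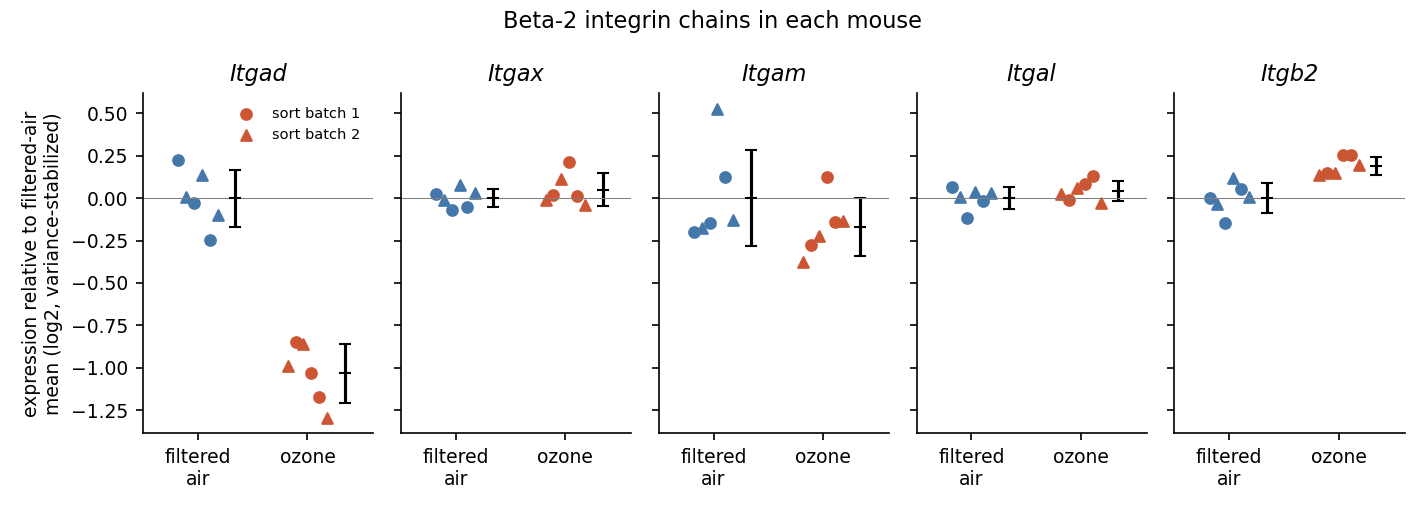
Expression of each beta-2 integrin chain in the 12 mice, relative to the filtered-air mean on the variance-stabilized log2 scale; points are mice, circles and triangles are flow-sort batches 1 and 2, and bars are the group mean ± SD (n = 6). The ozone mice lie between -1.29 and -0.85 in Itgad, below every filtered-air mouse, and between 0.13 and 0.26 in Itgb2, just above every filtered-air mouse.

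Itgad, the alpha D chain, separated the groups most. In filtered air its values had a lowest of -0.24, a median of -0.010 and a highest of 0.23. After ozone they had a lowest of -1.29, a median of -1.01 and a highest of -0.85. Every ozone mouse was below every filtered-air mouse, and the gap between the groups, 0.60, was wider than the range within either group, 0.47 in filtered air and 0.45 after ozone. The difference was -1.03 (SE 0.0878), the ozone mean being -1.03 ± 0.176 (SD, n = 6) and the SD of the filtered-air mice 0.167 (n = 6). It was the lowest difference among the 19633 genes tested. Taken as a log2 ratio, the estimate is a 2.05-fold difference, on a scale that shortens the differences of sparse genes. After quantile normalization the difference of Itgad was -0.88. On these values that step equalizes the spread of deviations from the filtered-air mean between mice, and not that of expression levels. The difference was -1.0 in flow-sort batch 1 and -1.06 in batch 2, each with 3 mice a group. Without filtered-air mouse 4 and ozone mouse 4 together it was -1.0. Leaving out each mouse in turn, limma made the call in 12 of 12 fits. The call was not made in batch 2 alone or with a variance trend. The trend left the difference at -1.03 and raised its SE from 0.0878 to 0.596. That trend is fitted over the mean of each gene, which here follows its ozone difference and not its abundance. It therefore cannot test this call.

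Itgb2, the beta chain that every member pairs with, went the other way and much less far. In filtered air its values had a lowest of -0.15, a median of 0.0032 and a highest of 0.12, the last in mouse 4. After ozone they had a lowest of 0.13, a median of 0.17 and a highest of 0.26. All 6 ozone mice lay above all filtered-air mice, but the gap was only 0.012. The difference was 0.19 (SE 0.046), the ozone mean being 0.19 ± 0.0551 (SD, n = 6) and the SD of the filtered-air mice 0.0903 (n = 6). It was 0.25 in batch 1 and 0.13 in batch 2, and 0.20 without mouse 4 of either group. The call of Itgb2 was marginal, since only 4 of 12 fits kept it when each mouse was left out in turn. It failed without filtered-air mouse 1, 2, 3 or 6 and without ozone mouse 3, 4, 5 or 6, where the difference stayed between 0.16 and 0.19 or 0.17 and 0.20. Quantile normalization, where the difference was 0.16, and either batch alone also ended the call.

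**Figure D3:**
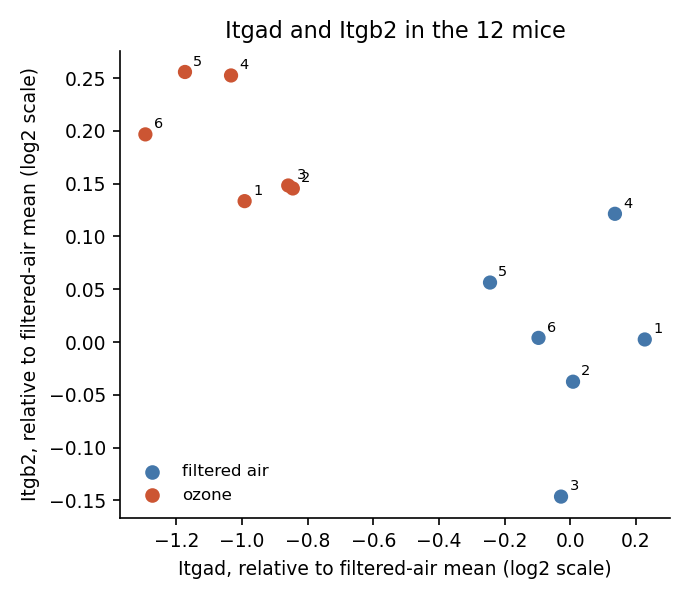
Itgad (horizontal) against Itgb2 (vertical) in the 12 mice, both relative to the filtered-air mean on the variance-stabilized log2 scale, with the mouse number beside each point. The groups are wide apart in Itgad, by 0.60, and narrowly apart in Itgb2, by 0.012.

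Itgax, the alpha chain of complement receptor 4 and the sequence neighbour of Itgad, differed by only 0.051 (SE 0.0471) between the groups. Its values ran from -0.070 to 0.075 in filtered air, with a median of 0.0073. After ozone they ran from -0.043 to 0.21, with a median of 0.017. The groups overlapped, and 2 of 6 ozone mice lay above all filtered-air mice. The difference was 0.11 in batch 1, -0.012 in batch 2 and 0.015 without ozone mouse 4, which held the highest value. Itgal, the alpha chain of LFA-1, had values from -0.12 to 0.063 in filtered air, with a median of 0.019. After ozone they ran from -0.029 to 0.13, with a median of 0.043. The groups overlapped here too, with a difference of 0.043 (SE 0.0413), 0.092 in batch 1 and -0.0053 in batch 2. Without filtered-air mouse 3 the difference of Itgal was 0.017, and without ozone mouse 5 it was 0.024. Neither chain was called in any of the 23 other fits.

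Itgam, the alpha chain of Mac-1, had the widest spread of the 5 chains in filtered air. Its filtered-air values had a lowest of -0.20, a median of -0.14 and a highest of 0.53, the last in mouse 4. After ozone they had a lowest of -0.38, a median of -0.18 and a highest of 0.12, the last in mouse 4 of that group. The groups overlapped, although 3 of 6 ozone mice lay below all filtered-air mice. The difference was -0.17 (SE 0.117), and it moved most with single mice: it was -0.055 (SE 0.0766) without filtered-air mouse 4, -0.24 (SE 0.114) without ozone mouse 4 and -0.11 (SE 0.0681) without both. It was -0.025 in batch 1, -0.32 in batch 2 and -0.11 after quantile normalization.

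Filtered-air mouse 4, the highest in Itgam, was also the highest of its group in markers of several other cell types. The mean of the 12 monocyte and interstitial macrophage markers ran from -0.16 to 0.30 in filtered air, highest in mouse 4, and from -0.051 to 0.18 after ozone, with 0.13 in mouse 4. The mean of the 8 neutrophil markers that passed the filter ran from -0.15 to 0.26 in filtered air, again highest in mouse 4, and from 0.020 to 0.18 after ozone, with 0.11 in mouse 4. The same mouse had group-highest means of 0.37 for B cell, 0.34 for epithelial and 0.33 for NK cell markers. After ozone the highest monocyte value, 0.18 in mouse 5, and the highest neutrophil value, 0.18 in mouse 6, came with Itgam values of -0.14 and -0.13. The median difference was 0.093 over the monocyte and 0.035 over the neutrophil markers, against -0.17 for Itgam. The groups overlapped in both lists. Of the monocyte list 0 of 12 genes were called in limma, where 4.25% of all genes were. In that list 3 had an unadjusted p under 0.05, as had 3283 of the 19633 genes tested. Of the neutrophil list only Cxcr2 was called, at 0.79 higher (SE 0.0909, limma adjusted p = 0.000451). The other 7 lay between -0.27 for Csf3r and 0.17 for Mmp8, so Cxcr2 weighs most in the neutrophil mean after ozone. The part of these cells in the values of Itgam was not tested.

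**Figure D4:**
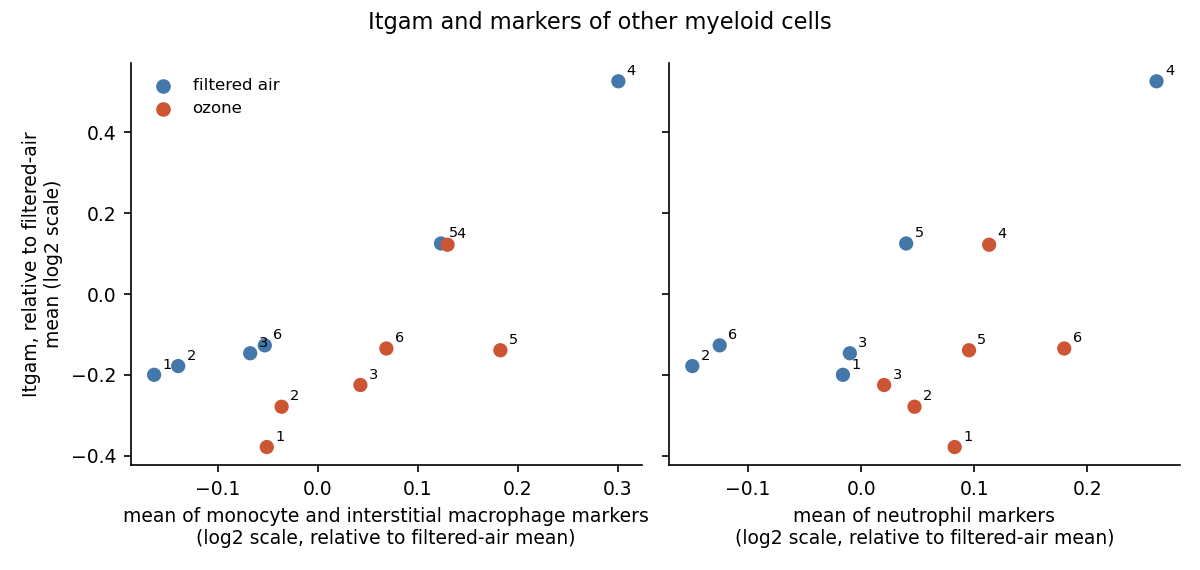
Itgam (vertical) against the mean of the monocyte and interstitial macrophage markers (left) and of the neutrophil markers (right) in the 12 mice, all relative to the filtered-air mean on the log2 scale, with the mouse number beside each point. Filtered-air mouse 4 is highest on all axes, at 0.53 for Itgam, 0.30 for the monocyte markers and 0.26 for the neutrophil markers.

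The ozone difference was then compared between the flow-sort batches, a contrast that had no part in choosing the chains. In limma's interaction test 0 of the 5 chains passed, and 0% of all genes did. The batch 2 difference minus that of batch 1 was -0.062 (SE 0.182) for Itgad, -0.29 (SE 0.229) for Itgam, -0.12 (SE 0.0919) for Itgax, -0.12 (SE 0.0902) for Itgb2 and -0.097 (SE 0.0817) for Itgal. Unadjusted p-values of limma lay between 0.198 for Itgax and 0.738 for Itgad, and 2.6% of all genes had one under 0.05.

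Whether the chains varied together among mice of the same exposure was asked with exposure and batch taken out, over deviations from the means of the 4 combinations of group and batch. Itgam and Itgb2 had the highest of the 10 pairwise correlations (Pearson r = 0.75, Spearman rho = 0.77, n = 12). It missed the threshold after adjustment over 10 pairs (exact permutation within the combinations, two-sided, p = 0.0177 and adjusted p = 0.178 for r; p = 0.0154 and adjusted p = 0.154 for rho), and r was 0.68 without the 2 mice farthest from the median of Itgam. Without filtered-air mouse 1 or 3 the adjusted p of this pair fell to 0.0463 in the exact permutation test, with r = 0.83 and 0.91. Without any other single mouse this test did not pass. Its adjusted p then ran from 0.0926 without ozone mouse 5 (r = 0.79) to 0.574 without filtered-air mouse 2 (r = 0.70). Without filtered-air mouse 4, the highest of its group in both chains, r was 0.65 (exact permutation, adjusted p = 0.525). Itgad and Itgax, the pair that shares words, had r = 0.45 and rho = 0.43 (exact permutation, n = 12, p = 0.213 and adjusted p = 0.426 for r; p = 0.23 and adjusted p = 0.491 for rho), with r = 0.29 without the 2 mice farthest in Itgad. Itgad and Itgb2 had r = -0.24 and rho = -0.34 (exact permutation, n = 12, p = 0.58 and adjusted p = 0.705 for r; p = 0.343 and adjusted p = 0.491 for rho), with r = -0.30 without those mice.

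Genes most like Itgad were named by their correlation with it. Over the values of the 12 mice, which hold the exposure, the highest Pearson r were 0.99 for Cd151, a tetraspanin that associates with integrins, 0.97 for Galnt15, 0.97 for Htra3, a secreted serine protease, 0.96 for Irgc1 and 0.95 for Errfi1, an inhibitor of the EGF receptor. All 5 were lower after ozone, by smaller amounts than Itgad: Cd151 differed by -0.32, Galnt15 by -0.17, Htra3 by -0.49, Irgc1 by -0.30 and Errfi1 by -0.28. Over the deviations of 12 mice, with exposure and batch taken out, other genes came first: Fam117b (r = 0.98), the kinase gene Stk17b (0.95), the phosphatase gene Dusp28 (0.95), Kcnip4 (0.95) and Get1 (0.95). Their ozone differences were mixed, from -0.17 for Fam117b to 0.17 for Get1, and none was called. These genes were picked for their correlation, which is therefore a description. The same holds for the direction of the first 5, which were picked over values that hold the exposure. Their smaller size is given by Itgad having the lowest difference of all genes tested.

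Few genes beside the cluster could be measured. Of the 12 other RefSeq genes that start within the cluster or are among the 5 next starts on either side, only 3 passed the filter on low values, all past the start of Itgad, and all 3 differences were below 0. In limma 0 of the 3 were called, where 4.25% of all genes were, with a smallest adjusted p of 0.118. Cox6a2, which encodes a subunit of cytochrome c oxidase and overlaps the last bases of the RefSeq Itgad gene, differed by -0.036 (SE 0.0311). The next genes, 9130023H24Rik and Armc5, differed by -0.12 (SE 0.0382) and -0.025 (SE 0.0382).

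Among the other integrin chains, 1 alpha and 1 beta chain passed the test, of 19 chains with enough reads, beside 4.25% of all genes. Itga4, the alpha chain of VLA-4, whose ligands VCAM-1 and fibronectin overlap with those of the alpha D integrin, fell by 0.33 (SE 0.0637, limma adjusted p = 0.0094). Its values ran from -0.23 to 0.18 in filtered air, with a median of -0.0013. After ozone they ran from -0.48 to -0.24, with a median of -0.29, so all 6 ozone mice were lower than all filtered-air mice. After quantile normalization the difference of Itga4 was -0.28 and the call was lost (limma adjusted p = 0.117). All 7 B cell markers were also below 0, with a median of -0.20, and 0 of them were called in limma. Of these, 3 had an unadjusted p under 0.05, as had 3283 of the 19633 genes tested. B cells were not alone in this. All 7 NK cell, all 6 endothelial and 7 of 8 dendritic cell markers were below 0 too, with medians of -0.087, -0.086 and -0.062. Of the monocyte markers, 8 of 12 were above 0, with a median of 0.093. The mean of the B cell markers ran from -0.22 to 0.37 in filtered air and from -0.36 to -0.060 after ozone. The part of any of these cells in the value of Itga4 was not tested. Itgb5, the beta chain of a vitronectin receptor, rose by 0.35 (SE 0.034, limma adjusted p = 0.000112). Its values ran from -0.088 to 0.045 in filtered air, with a median of 0.016, and from 0.32 to 0.39 after ozone, with a median of 0.35. The remaining 12 of 13 alpha and 5 of 6 beta chains with enough reads were not called, with differences from -0.21 for Itgb7 to 0.13 for Itga6. The median difference was -0.047 over the other alpha chains and -0.016 over the other beta chains.

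**Figure D5:**
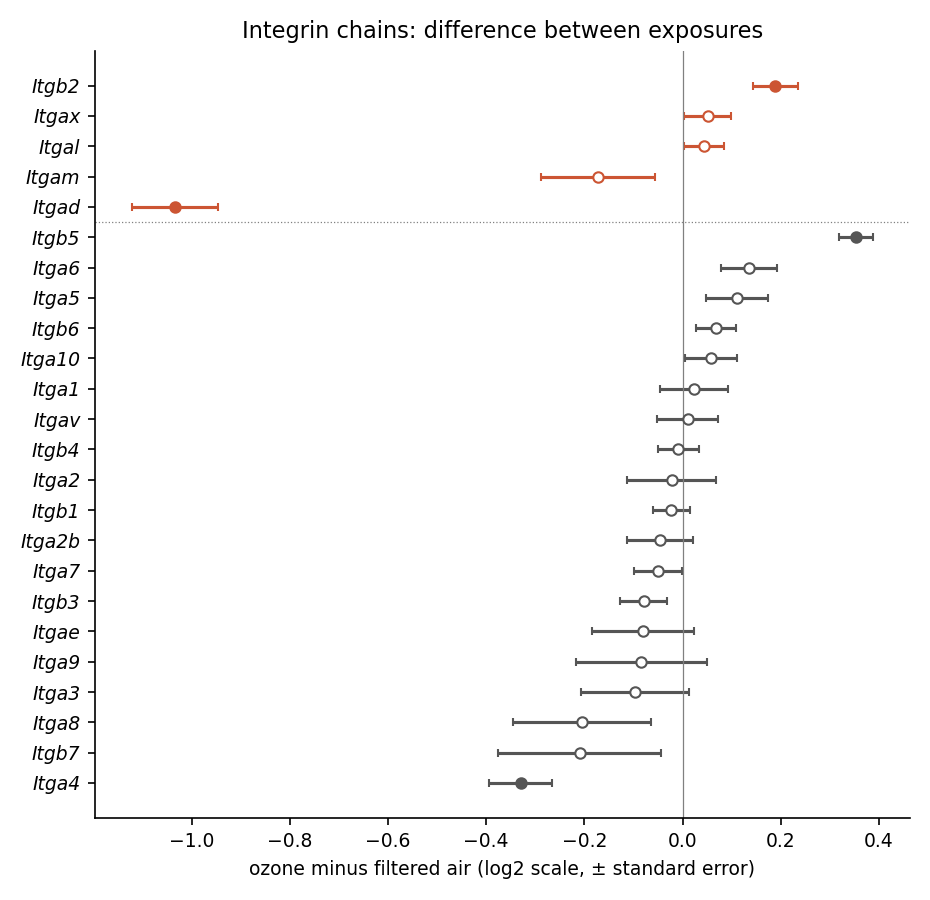
Ozone minus filtered air with its standard error from limma for the 5 beta-2 chains (red, top) and the 19 other integrin chains that passed the filter (grey), on the log2 scale; filled points had an adjusted p under 0.05. Itgad, at -1.03, lies far below the next lowest chain, Itga4, at -0.33, and Itgb5 is highest at 0.35.

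The pathway around the beta-2 integrins was described with 7 lists of 118 genes. Of the 112 that passed the filter, 11 were called in limma (9.82%, beside 4.25% of all genes), 7 higher and 4 lower, with a median difference of -0.015. These lists were written with earlier results of these data known, so the share is not independent evidence. The 11 include Itga4 and Itgb5.

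Among ligands, 1 of 16 genes rose and 0 fell. C3, the complement protein whose fragment iC3b is bound by Mac-1 and complement receptor 4, rose by 0.64 (SE 0.0942, limma adjusted p = 0.00193). Its values ran from -0.16 to 0.14 in filtered air, with a median of 0.0070, and from 0.45 to 1.09 after ozone, with a median of 0.59, so the groups were separate. Its highest value was that of ozone mouse 4, and without single mice the rise lay between 0.54 and 0.69. The other 15 ligand genes, with differences from -0.16 for Fcer2a to 0.091 for Icam1, were not called, and the list had a median of -0.028. Fgb, a fibrinogen chain, did not vary, and 3 more ligand genes fell below the filter.

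Among genes that switch integrins on from inside the cell or bind their tails, 2 of 22 fell and 1 rose, with a median of -0.065. Cyth1, encoding cytohesin-1, which binds the CD18 tail, fell by 0.39 (SE 0.0609, limma adjusted p = 0.00277). Its values ran from -0.14 to 0.13 in filtered air, with a median of -0.0048, and from -0.48 to -0.15 after ozone, with a median of -0.44. The groups were separate by a narrow gap. Cytip, which encodes a binding partner of cytohesin-1, fell by 0.30 (SE 0.0706, limma adjusted p = 0.0288), from values of -0.20 to 0.085 to values of -0.55 to -0.12. Its groups overlapped, and limma kept its call in only 4 of 12 fits that each omitted a mouse. It failed without filtered-air mouse 1, 2, 4, 5 or 6 or ozone mouse 3, 4 or 5, with limma adjusted p-values up to 0.0722 and differences from -0.30 to -0.28. The difference of Cytip was -0.19 in batch 1 and -0.40 in batch 2. Prkcd, a protein kinase C gene, rose by 0.27 (SE 0.06, limma adjusted p = 0.0203), with overlapping groups. The call of Prkcd did not hold without filtered-air mouse 1, where its difference was 0.26, or ozone mouse 3, where it was 0.25, and the calls of Prkcd and Cytip did not hold without both mice numbered 4, with limma adjusted p-values of 0.102 and 0.103 and differences of 0.24 and -0.28. Quantile normalization also ended the calls of Prkcd, at 0.22 (limma adjusted p = 0.073), and of Cytip, at -0.25 (limma adjusted p = 0.127), and the variance trend that of Cytip (limma adjusted p = 0.0502). The 19 others lay between -0.21 and 0.086.

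In the signalling and cytoskeletal list 1 of 26 genes rose and 0 fell. Actn1, encoding alpha-actinin-1, which links integrin tails to actin, rose by 0.27 (SE 0.0341, limma adjusted p = 0.000895). Its values ran from -0.047 to 0.075 in filtered air, with a median of -0.0038, and from 0.20 to 0.30 after ozone, with a median of 0.28. The other 25 lay between -0.28 for Vcl and 0.16 for Rac2, and the list median was 0.033.

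Of 12 surface partners, 2 rose and 1 fell, with a median of -0.025. The tetraspanin genes Cd81 and Cd63 rose by 0.30 (SE 0.0469, limma adjusted p = 0.00291) and by 0.59 (SE 0.127, limma adjusted p = 0.0157). Cd81 had separate groups, from -0.065 to 0.087 in filtered air and from 0.20 to 0.42 after ozone, while those of Cd63 overlapped, from -0.34 to 0.58 and from 0.46 to 0.87. Plaur, the urokinase receptor that associates with Mac-1, fell by 0.29 (SE 0.0652, limma adjusted p = 0.0204), with overlapping groups. Plaur was no longer called without filtered-air mouse 1, without ozone mouse 5 or without both mice numbered 4, with limma adjusted p-values of 0.0557, 0.0527 and 0.0942 and differences of -0.27, -0.26 and -0.24. Quantile normalization ended the calls of Plaur, at -0.24 (limma adjusted p = 0.125), and of Cd63, at 0.53 (limma adjusted p = 0.0894), and the variance trend that of Cd63 (limma adjusted p = 0.0623).

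Of 17 transcription factors reported at promoters of CD11 or CD18 genes, 1 rose and 0 fell, with a median of -0.0020. Fos, an immediate early gene of the AP-1 family, rose by 0.57 (SE 0.118, limma adjusted p = 0.0136), from values of -0.51 to 0.27 to values of 0.32 to 0.79. The difference of Fos was 0.31 in batch 1 and 0.83 in batch 2. It was no longer called after quantile normalization, at 0.49 (limma adjusted p = 0.14), or with the variance trend (limma adjusted p = 0.0517). The other 16 lay between -0.27 for Ets1 and 0.19 for Jun and were not called.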

How the data were processed

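RNA was measured in 12 mice, 6 a group, with 3 of each group in either flow-sort batch, by paired-end 50-base reads of a stranded mRNA library, per the labels' protocols. The submitters' processing notes name cutadapt, STAR 2.7.7a, Salmon 1.5.2, DESeq2 1.26.0, R 3.6.0, limma 3.42.2 and mm10. The deposited values are on a log2 scale that the authors variance-stabilized and corrected for batch, per the title of the deposited table; the annotation is not given in the sources used here. No counts were used, so depth is known only relative between libraries.

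Genes above the shared minimum in at least 6 mice were kept (19633 of 25444 that varied). Ozone was compared with filtered air in limma 3.58.1 (R 4.3.3) with batch as a covariate and Benjamini-Hochberg adjustment over all genes kept, threshold 0.05; the fit was tested on simulated data. Alternatives changed filter, prior variance, scaling, covariates, samples and block. Transcripts came from GENCODE M21, the longest coding sequence per gene; identity is from global alignment. Neighbouring genes and synonyms came from the RefSeq table.

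Members and lists were chosen with earlier results of these data known. Named genes are the members, up to 4 called genes a pathway list, the 5 most correlated with Itgad under each measure, and the neighbours of the cluster.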

Additional observations from a re-analysis of the deposited data

Results flagged for a closer look

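A mouse far from the other 5 of its group was looked for in 32 combinations of gene and group, the 5 chains and 11 named pathway genes. In 4 of them the gap to the next mouse, as a share of the range of the group, exceeded Dixon's 95% critical value, and 1.6 are expected by chance. None of the 5 chains was among them. In C3, ozone mouse 4 was highest at 1.09. In Cyth1, ozone mouse 2 was highest of its group at -0.15. In Plaur the same mouse was highest of its group at -0.045. In Cytip, filtered-air mouse 3 was lowest at -0.20.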

How the results depend on the processing

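The differences of Itgad, Itgam and Itgb2 kept their sign under every alternative run, although that of Itgam was only -0.025 in batch 1 alone. Those of Itgax and Itgal, small in all mice, were -0.012 and -0.0053 in batch 2 alone. Without single mice the differences ranged from -1.09 to -0.98 for Itgad, from 0.015 to 0.072 for Itgax and from -0.24 to -0.055 for Itgam. For Itgal they ranged from 0.017 to 0.060 and for Itgb2 from 0.16 to 0.22. The interaction test called 0 chains in each of these fits. The count of 834 called genes, 473 higher and 361 lower, and the 11 pathway calls moved more. Quantile normalization gave 171 genes, 106 higher and 65 lower, and 5 pathway calls. Batch 1 alone gave 90, 71, 19 and 1, and batch 2 alone gave 0 genes in limma, with 0 higher, 0 lower and 0 pathway calls, and 1800 genes and 13 pathway genes at an unadjusted p under 0.05; both use fewer mice. The variance trend gave 221 lower genes. As gene means on this scale follow the ozone difference and not abundance, that setting cannot test whether a call holds. Without both mice numbered 4, an alternative chosen after seeing the data, 534 genes were called, 205 of them lower. Without single mice the ranges were 538 (without filtered-air mouse 1) to 751 genes, 326 to 456 higher, 212 (without filtered-air mouse 1) to 312 lower, and 8 to 12 pathway calls, and 0 to 1 of the 10 chain pairs passed. Quantile normalization was run on deviations from the filtered-air mean, so it is no test of library scaling. Apart from the smaller samples, the cause of these moves was not tested.

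Of 253 results for the 11 named pathway genes under alternatives, 208 kept direction and call, 45 lost the call and 0 reversed; 21 of the losses were in single batches (10 and 11), 6 after quantile normalization (Itga4, Prkcd, Cytip, Cd63, Plaur and Fos) and 3 with the variance trend (Cytip, Cd63 and Fos).

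Replicate numbers occur in both groups and mark different mice. Same-numbered mice were in different flow-sort batches for the numbers 1 to 4, so the samples were not treated as paired. Deviations of same-numbered mice correlated at -0.0026 to 0.28, over 0.1 in 4 of 6 pairs, and 6 of 12 mice correlated best with their own number. With the replicate block 853 genes were called, 489 higher and 364 lower, and 12 pathway genes, and no call of a chain changed. The block lowered the SE of Itgam from 0.117 to 0.0518 and that of Itgad from 0.0878 to 0.0632. The SE of Itgal rose from 0.0413 to 0.0445.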
